A study of Mus musculus with 4 samples.

Results

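Levels of 6 transcripts were followed across the immune lineages of the mouse esophagus: Rpl29, Nudt16, Gm42031, Gm43305, G530011O06Rik and AC102496.1, 6 of the 32285 genes counted. They were chosen by their difference in level between Il20rb knock-out and wild-type animals in these same cells, so their genotype differences are given below as descriptions and carry no test. The working name of the set, transcripts that mark the knock-out in every lineage, fitted Rpl29 only. Rpl29 separated all knock-out from all wild-type animals in each of the 7 lineages that could be compared. Gm42031 did so in 6 lineages, Gm43305 and G530011O06Rik in 3 each, AC102496.1 in 2 and Nudt16 in 1. For G530011O06Rik, 1 of the 3 is cycling-like cells, where the depth could not separate the genotypes. All 3 of its separations fell below the low-count filter of the fit, and in monocyte-like cells, where it passed the filter, its groups overlapped. Gm42031 in macrophage-like cells and Gm43305 in monocyte-like cells also fell below the filter. The shares over all tested genes given below cover only genes that passed it. G530011O06Rik had no UMI (unique molecular identifier, the unit counted) in any lymphoid lineage of either genotype.

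The libraries came from live CD45+ cells of the esophagus of 5 Il20rb knock-out mice (hashtags B0306 to B0310, called knock-out 1 to 5 here) and 5 wild-type mice (B0301 to B0305, wild-type 1 to 5). All 10 mice went through a model of eosinophilic esophagitis: the ear was sensitised with calcipotriol (MC903) and ovalbumin for 14 days, ovalbumin was then given in the drinking water for 4 days and by gavage on days 15 and 17, and tissue was taken on day 18. No unchallenged animal is in the series, and the labels give no strain, age or litter, nor how the knock-out was made or bred. Each mouse's cells carried its own hashtag, and the mixture of all mice was sorted and run in 2 droplet wells with 3′ end chemistry. Each well thus holds both genotypes, and the animal is the replicate.

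Rpl29 encodes a protein of the large ribosomal subunit, the particle that joins amino acids during translation, and ribosomal protein genes are read in every cell. NUDT16 is a nudix hydrolase that cleaves inosine diphosphate and related nucleotides and can remove the cap of some RNAs. Gm42031, Gm43305 and G530011O06Rik are annotated as long noncoding RNAs, transcripts with no known protein product. For AC102496.1 no class or position was used here. Il20rb encodes the beta subunit of receptors for cytokines of the IL-20 family, which are best known for acting on epithelial cells. A mouse line bred for a targeted allele can also carry sequence of the donor strain around it, as general background.

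Rpl29 (ENSMUSG00000048758) lies at chr9:106428889-106431568 in build GRCm38.p6, 5.94 Mb from Il20rb at chr9:100457719-100486473. Nudt16 (ENSMUSG00000032565) lies at chr9:105129332-105133133, between Il20rb and Rpl29 and 4.64 Mb from Il20rb. The other 3 placed members are on other chromosomes: Gm42031 (ENSMUSG00000110386) at chr8:85125923-85131814, Gm43305 (ENSMUSG00000105703) at chr14:54292441-54297488 and G530011O06Rik (ENSMUSG00000072844) at chrX:169975043-169978917. G530011O06Rik overlaps Mid1, the only RefSeq gene found to overlap a placed member. AC102496.1 is ENSMUSG00000117465.

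Gm42031 and Gm43305 sit on different chromosomes but begin with nearly the same sequence. Their RefSeq promoter windows (GRCm38.p6, 250 bases before to 50 after the start, both on the minus strand) matched at 294 of 300 bases and are printed 5′ to 3′ because reads of such near-copies may not be told apart. Capitals mark the 6 bases that differ.
Gm42031, chr8:85131765-85132064: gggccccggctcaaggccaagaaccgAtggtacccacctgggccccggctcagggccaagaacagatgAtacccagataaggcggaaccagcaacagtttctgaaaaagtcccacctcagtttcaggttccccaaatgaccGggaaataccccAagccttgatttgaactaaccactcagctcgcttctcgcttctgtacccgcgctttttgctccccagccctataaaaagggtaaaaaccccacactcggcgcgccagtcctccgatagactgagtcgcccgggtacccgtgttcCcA
Gm43305, chr14:54297439-54297738: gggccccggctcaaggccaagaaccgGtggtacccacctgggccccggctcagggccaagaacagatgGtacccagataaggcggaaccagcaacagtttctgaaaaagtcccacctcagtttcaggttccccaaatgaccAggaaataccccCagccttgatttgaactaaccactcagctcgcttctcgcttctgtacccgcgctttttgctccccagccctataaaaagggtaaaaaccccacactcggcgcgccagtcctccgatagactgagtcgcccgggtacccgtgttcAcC

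Counted from 1 at the first base printed, the substitutions from Gm42031 to Gm43305 are A27G, A69G, G142A, A154C, C298A and A300C. Both windows hold the TATA-box letters TATAAAA, starting at base 224, a run that 5.48% of the 32851 promoter windows hold on either strand. The windows of 3 further RefSeq genes, Gm33887, Gm40814 and Gm40843, share a run of 30 bases with this pair, and none of these is a row of the count table. G530011O06Rik has a window on chromosome X and another on Y, with 293 of 300 aligned bases identical. Reads from near-copies can be split or shared by the authors' counting, and reads of G530011O06Rik and Mid1 likewise if counting ignored strand, so the levels of Gm42031, Gm43305 and G530011O06Rik are uncertain to that extent. How alike the 3′ ends of the transcripts are, where these libraries read, was not tested.

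Depth and labels were checked before the values were read. The animals held 1805883 to 5666994 UMIs in knock-out and 2884534 to 5113431 in wild-type, with median depths per cell of 5133 to 6034 UMIs in knock-out and 3569 to 5993 in wild-type animals. Ptprc, which encodes CD45, had a UMI in 89.8% to 92.8% of cells per knock-out animal and 81.8% to 90.6% per wild-type animal. Il20rb itself gave 16 UMIs, or 0.402 ± 0.101 CPM (UMIs per 1000000 UMIs of the animal or lineage, the unit used throughout) in knock-out and 0.501 ± 0.390 CPM in wild-type animals (SD, n = 5 each), so these 3′ counts do not check the genotype labels. Xist was at 456 to 779 CPM in knock-out and 416 to 743 CPM in wild-type animals, and 4 Y-linked genes gave 0 to 2 UMIs each. Cell make-up differed: monocyte-like cells were 32.3% of knock-out and 14.4% of wild-type cells, and neutrophil-like cells 4.71% and 13.7%, and in a sum over all cells fewer cells of a type and less RNA per cell cannot be told apart.

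In all CD45+ cells, Rpl29 was the most abundant member and lower in knock-out animals. It stood at 603, 587, 587, 506 and 482 CPM in knock-out animals 1 to 5, against 892, 1012, 1123, 1152 and 990.5 CPM in wild-type animals 1 to 5. Every knock-out value was below every wild-type value, at a log2 fold of -0.83 ± 0.09 (edgeR fit, SE). For comparison, 1.13% of the 10175 genes tested had all knock-out animals below all wild-type animals and 0.334% had them above.

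Nudt16 was the only member that was higher in knock-out animals. Its level was 18.4, 31.3, 33.8, 27.3 and 11.2 CPM in knock-out animals, against 3.94, 8.64, 9.39, 7.40 and 6.93 CPM in wild-type animals. The lowest knock-out value, in animal 5, was just above the highest wild-type value, in animal 3, and the log2 fold was 1.77 ± 0.26 (SE).

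Gm42031 was far lower in knock-out animals. It stood at 4.94, 16.4, 15.5, 10.5 and 6.15 CPM in knock-out animals, against 53.6, 97.9, 102, 118 and 229.8 CPM in wild-type animals, a log2 fold of -3.48 ± 0.42 (SE). Wild-type animal 5 was the highest and wild-type animal 1 the lowest of their group, and the groups did not overlap.

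Gm43305, with nearly the same promoter window, was also lower on average. It was at 5.47, 24.5, 18.3, 14.3 and 10.9 CPM in knock-out animals, against 17.9, 38.8, 59.8, 63.8 and 68.3 CPM in wild-type animals (log2 fold -1.73 ± 0.40, SE). Wild-type animal 1 was below knock-out animals 2 and 3, so this member's groups overlapped. The knock-out animal was lower in 23 of 25 pairs.

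AC102496.1 was at 9.35, 12.8, 16.6, 12.2 and 7.83 CPM in knock-out animals, against 34.4, 42.9, 85.1, 50.0 and 53.7 CPM in wild-type animals (log2 fold -2.14 ± 0.23, SE). The groups did not overlap, and no knock-out animal reached the level of the lowest wild-type animal, animal 1. G530011O06Rik was rare: 2.65, 0.802, 0, 3.79 and 3.91 CPM in knock-out animals, against 60.4, 20.9, 9.0, 12.3 and 13.2 CPM in wild-type animals (log2 fold -3.23 ± 0.78, SE). Wild-type animal 1 alone stood far above the others of its group, and it also had the most monocyte-like cells of the wild-type animals, 241 of 494. Without wild-type animal 1 the log2 fold of G530011O06Rik was -2.34.

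**Figure D1:**
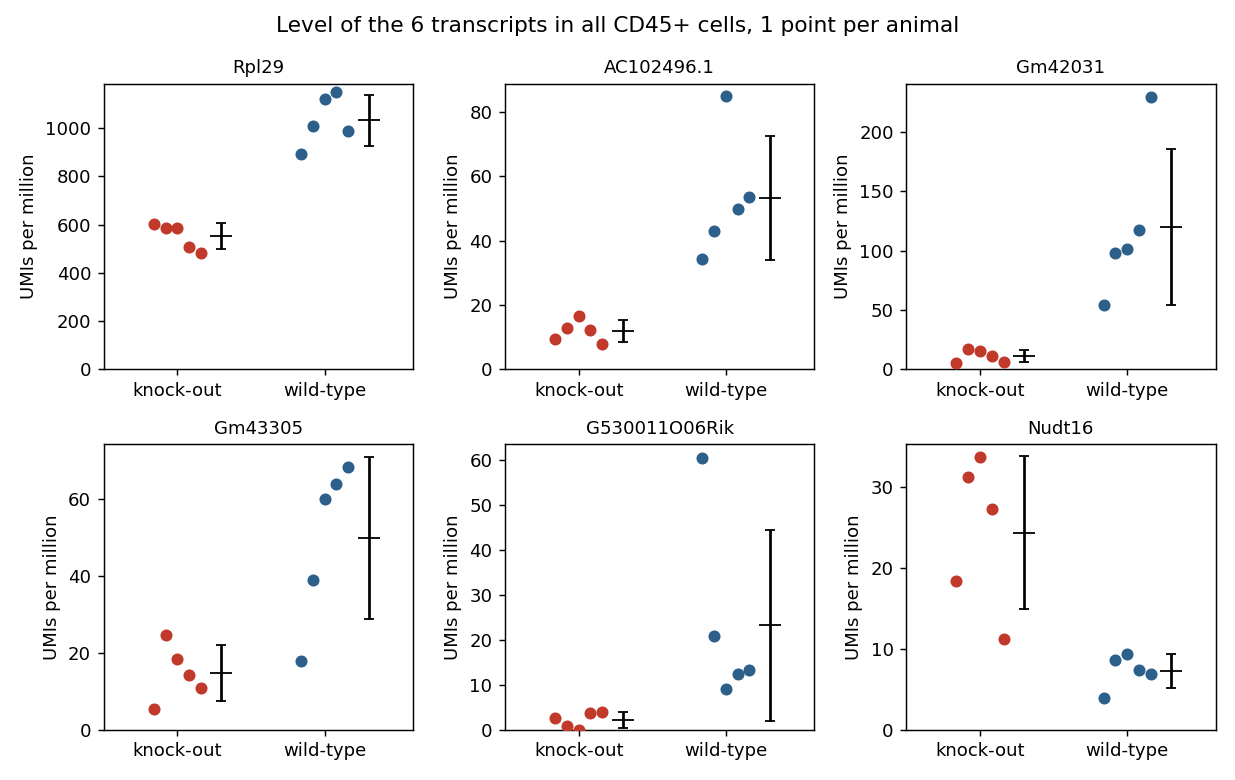
Level of each of the 6 transcripts in all CD45+ cells, in CPM, with 1 point for each of the 5 knock-out (left, red) and 5 wild-type (right, blue) animals and the mean ± SD in black. All but Gm43305 have no overlap between genotypes, Nudt16 is the only one that is higher in knock-out animals, and 1 wild-type animal at 60.4 sets the wild-type spread of G530011O06Rik.

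Within each well, 4 members kept the genotypes apart. Rpl29, AC102496.1, Gm42031 and G530011O06Rik did not overlap between genotypes in well 1 or in well 2. The share of all tested genes without overlap in a single well was not computed. Over both wells together, knock-out animals were below for 1.13% and above for 0.334% of genes. Nudt16 was apart in well 1, at 10.8 to 33.3 CPM in knock-out and 3.88 to 9.60 CPM in wild-type animals, and overlapped in well 2, at 11.6 to 40.6 and 4.00 to 12.3 CPM. Gm43305 overlapped in both wells. The wells share the animals, so they repeat the library preparation and not the genotype.

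To look within lineages, cells were clustered without the 6 transcripts and clusters were named from marker genes as "X-like". The names are rebuilt and are not the authors'. The lineages with 10 or more cells in at least 3 animals of each genotype numbered 7: type 2 innate lymphoid (ILC2)-like, T-like, cycling-like, conventional dendritic cell 1 (cDC1)-like and 2 (cDC2)-like, macrophage-like and monocyte-like cells. Neutrophil-like and B-like cells had too few knock-out cells for that and are given as pooled counts. In the 6 clusters that met no marker rule, with 507 knock-out and 702 wild-type cells, no lineage is named.

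Rpl29 was lower in knock-out animals in all 7 lineages, with no overlap in any. Its log2 fold lay between -1.01 ± 0.16 in macrophage-like and -0.65 ± 0.12 in cDC1-like cells (SE). In T-like cells it was at 940.3, 901, 665 and 648 CPM in knock-out animals 1, 2, 3 and 5, against 1403, 1443, 1392, 1168 and 1535 CPM in wild-type animals. In monocyte-like cells, at the other end of the wild-type order, it was at 589.5, 342, 422 and 405 CPM in knock-out animals 1, 2, 4 and 5, against 918, 899, 957, 886 and 928 CPM in wild-type animals. The share of all tested genes with knock-out animals below wild-type animals ran from 0.662% in macrophage-like through 0.697% in cDC2-like, 1.71% in cDC1-like, 1.72% in T-like, 2.10% in ILC2-like and 2.99% in monocyte-like to 3.40% in cycling-like cells. The share with knock-out animals above was 0.292% in macrophage-like, 0.343% in T-like, 0.348% in cDC2-like, 0.507% in cDC1-like, 2.35% in ILC2-like, 2.42% in cycling-like and 2.89% in monocyte-like cells.

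Apart from neutrophil-like cells, the lineages were close in Rpl29. Among wild-type animals the order of the means, high to low, was T-like (1388 ± 135 CPM, SD, n = 5), ILC2-like, cDC1-like, cDC2-like, cycling-like, macrophage-like, migratory dendritic cell-like and monocyte-like (917 ± 27.4 CPM, n = 5), and each of these overlapped its neighbour in the order. Neutrophil-like cells stood apart below them at 120 ± 62.3 CPM (n = 5). Among the 7 lineages with 3 or more knock-out animals, T-like cells were again highest (789 ± 154 CPM, n = 4) and monocyte-like cells lowest (440 ± 106 CPM, n = 4), and each overlapped its neighbour. Neutrophil-like cells of 2 knock-out animals averaged 47.9 CPM. The level of Rpl29 differed among the 7 lineages (edgeR F test with animal as a block, adjusted p = 2.34e-05), as did that of 88.3% of the 5426 genes tested.

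**Figure D2:**
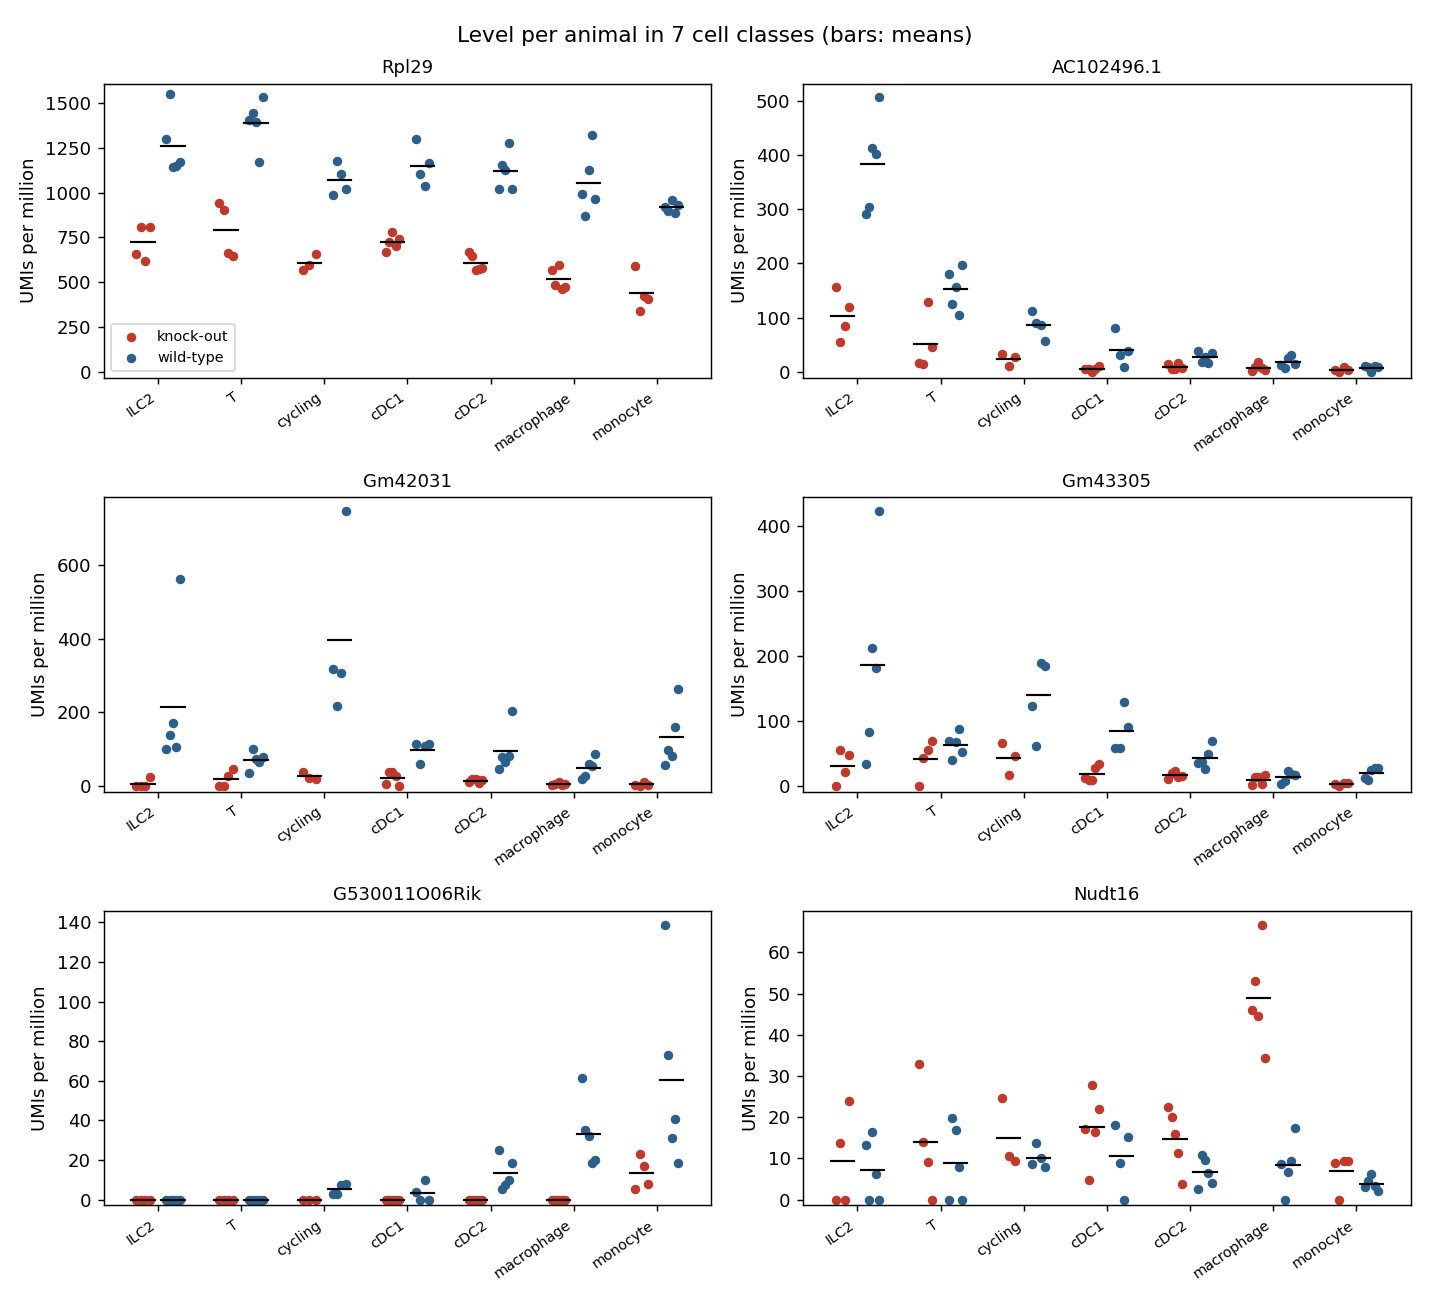
Level per animal, in CPM, in the 7 lineages with enough cells, for knock-out (red, left of each pair) and wild-type animals (blue, right); black bars are means. Rpl29 is split by genotype in every lineage, Nudt16 in macrophage-like cells only, and G530011O06Rik is at 0 in ILC2-like and T-like cells of both genotypes.

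Nudt16 did not overlap between genotypes in macrophage-like cells. There it was at 46.0, 53.0, 44.5, 66.7 and 34.4 CPM in knock-out animals, against 8.74, 0, 6.65, 9.30 and 17.3 CPM in wild-type animals, a log2 fold of 2.67 ± 0.41 (SE). Of the macrophage-like cells, 21.6% of 361 knock-out cells and 5.13% of 468 wild-type cells had a UMI of Nudt16. In the other 6 lineages the knock-out mean was higher but the animals overlapped: in cDC2-like cells 22.4, 20.1, 16, 11.4 and 3.71 CPM in knock-out animals, against 2.53, 10.9, 9.67, 6.47 and 4.15 CPM in wild-type animals. Monocyte-like cells were low in both genotypes, at 6.85 ± 4.57 CPM in knock-out (n = 4) and 3.87 ± 1.58 CPM in wild-type animals (n = 5). In the 6 unnamed clusters the pooled level of Nudt16 was higher in knock-out cells of each. Clusters 10, 11 and 22 rest on 2, 6 and 3 UMIs in knock-out and 1, 5 and 1 in wild-type cells, too few to compare. In clusters 8, 12 and 18 it was at 66.4, 47.1 and 63.2 CPM in knock-out cells, against 11.9, 5.46 and 16.6 CPM in wild-type cells, and cluster 8 rests on 7 and 3 UMIs. In wild-type animals each of the 9 lineages with 3 or more animals overlapped the next in the order of levels. In knock-out animals macrophage-like cells stood apart above the next lineage, cDC1-like cells at 17.6 ± 8.52 CPM (n = 5).

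Gm42031 was low in knock-out cells of every lineage with enough cells and did not overlap in 6 of 7. In monocyte-like cells it was at 3.19, 0, 11.1 and 2.19 CPM in knock-out animals 1, 2, 4 and 5, against 55.6, 97.9, 80.7, 159 and 265 CPM in wild-type animals (log2 fold -4.99 ± 0.70, SE). In cycling-like cells, where it was highest, it was at 37.0, 21.3 and 18.6 CPM in knock-out animals 2, 3 and 4, against 317, 217, 308 and 748 CPM in wild-type animals 2 to 5 (log2 fold -3.71 ± 0.66, SE). ILC2-like cells of knock-out animals held 1 UMI of Gm42031 in 67 cells, against 177 UMIs in 234 wild-type cells. The pooled ratio there was 0.0191, with an exact Poisson 95% interval of 0.000481 to 0.108 that covers counting error only. The fitted log2 fold was -5.26 ± 1.71 (SE) and -7.76 without knock-out animal 5, the animal with that UMI. In T-like cells the groups overlapped: 0, 0, 27.7 and 46.3 CPM in knock-out animals 1, 2, 3 and 5, against 34.4, 99.3, 71.9, 64.0 and 78.7 CPM in wild-type animals. Wild-type animal 5 was highest in cycling-like, ILC2-like, cDC2-like, macrophage-like and monocyte-like cells.

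Monocyte-like cells were not the same mixture in both genotypes. Cluster 0, led by Ccl12, Ccl8 and Cxcl10, held 395 of the 850 knock-out and 92 of the 494 wild-type monocyte-like cells, and cluster 4, led by Ccl24, Cxcl3 and Arg1, held 54 and 138. Within cluster 0, Gm42031 was at 4.64 CPM in knock-out and 72.1 CPM in wild-type cells. Within cluster 4 it had 0 UMIs in knock-out cells and 46 UMIs (60.5 CPM) in wild-type cells. Rpl29 was at 411 CPM in knock-out and 723 CPM in wild-type cells of cluster 0, and at 547 and 872 CPM in cluster 4.

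Gm43305 did not overlap between genotypes in cDC1-like, cDC2-like and monocyte-like cells. In cDC1-like cells it was at 11.4, 9.67, 9.29, 27.3 and 33.1 CPM in knock-out animals, against 58.3, 58.6, 128 and 91.2 CPM in wild-type animals 2 to 5 (log2 fold -2.10 ± 0.46, SE). In T-like cells the genotypes were close, at 41.8 ± 30.0 CPM in knock-out (n = 4) and 63.4 ± 18.3 CPM in wild-type animals (n = 5), with 13 of 20 pairs lower in the knock-out animal. Macrophage-like cells were close too, at 9.62 ± 6.96 CPM in knock-out and 13.8 ± 8.38 CPM in wild-type animals (n = 5 each). In ILC2-like cells it was at 0, 54.7, 21.4 and 47.6 CPM in knock-out animals 1, 2, 4 and 5, against 33.0, 82.9, 212, 182 and 423 CPM in wild-type animals.

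Among the lineages with 3 or more animals, AC102496.1 had its highest mean in ILC2-like and then T-like cells in both genotypes. In ILC2-like cells it was at 156, 54.7, 85.6 and 119 CPM in knock-out animals 1, 2, 4 and 5, against 291, 304, 413, 401 and 506 CPM in wild-type animals (log2 fold -1.92 ± 0.29, SE), with no overlap. In T-like cells it was at 16.5, 14.1, 129.4 and 46.3 CPM in knock-out animals 1, 2, 3 and 5, against 181, 126, 157, 104 and 197 CPM in wild-type animals, and knock-out animal 3 lay within the wild-type range. The T-like log2 fold was -1.26 ± 0.45, -2.62 without that animal and -0.46 ± 0.50 with coarser clusters (SE). In cycling-like cells it also did not overlap, at 10.6 to 32.9 CPM in knock-out and 56.3 to 111 CPM in wild-type animals. Knock-out animal 5 and wild-type animal 1 were left out there for having too few cells, 4 and 5. Their values were 180 CPM (6 UMIs) and 172 CPM (8 UMIs), so with them the groups would overlap. Monocyte-like cells were near 0 in both genotypes, at 4.11 ± 3.90 CPM in knock-out (n = 4) and 7.76 ± 4.48 CPM in wild-type animals (n = 5). In wild-type animals ILC2-like cells (383 ± 88.2 CPM, n = 5) stood apart above T-like cells (153 ± 38.2 CPM, n = 5), and from there down each lineage overlapped the next.

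G530011O06Rik was seen in monocyte-like, macrophage-like, cDC1-like, cDC2-like and cycling-like cells and in the unnamed clusters. Migratory dendritic cell-like cells, 32 in knock-out and 56 in wild-type animals, held 0 UMIs of it. ILC2-like cells with a UMI numbered 0 of 67 knock-out and 0 of 234 wild-type ILC2-like cells, which at 3 counts allows a share of cells with a UMI of up to 4.48% and 1.28%. In macrophage-like cells it had 0 UMIs in all 5 knock-out animals, against 61.2, 35, 31.9, 18.6 and 19.8 CPM in wild-type animals, at least 24.4-fold lower in knock-out cells when a floor of 3 counts over the group is used. In cDC2-like cells it had 0 UMIs in knock-out animals, against 25.3, 5.46, 7.52, 9.70 and 18.7 CPM in wild-type animals, at least 11.6-fold lower. In cycling-like cells 0 UMIs in knock-out cells allow up to 4.60 CPM, against 6.36 CPM over the wild-type cells and 2.86 CPM in the lowest wild-type animal, so a difference was not detectable at this depth. Monocyte-like cells of knock-out animals did hold it: 5.59, 22.8, 16.7 and 7.68 CPM in knock-out animals 1, 2, 4 and 5, against 139, 72.8, 31.1, 40.7 and 18.6 CPM in wild-type animals. Knock-out animal 2, with 1 UMI, was above wild-type animal 5. Of the 38 knock-out UMIs in monocyte-like cells, 31 were in cluster 0 and 7 in cluster 9. Clusters 4, 6 and 7, with 54, 133 and 56 knock-out cells, held none (exact Poisson upper limits 9.95, 4.56 and 10.3 CPM), against 124, 60.9 and 60.9 CPM in 138, 31 and 65 wild-type cells. Cluster 19, with 11 knock-out cells, was too shallow to compare.

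Neutrophil-like cells numbered 124 in knock-out and 467 in wild-type animals, and 317 of the wild-type cells came from animal 1. They were shallow, with a median of 1766 UMIs per cell in knock-out and 1826 in wild-type animals. Rpl29 gave 10 UMIs in 244400 (40.9 CPM, exact Poisson 95% interval 19.6 to 75.2) in knock-out cells and 119 in 958234 (124 CPM, 103 to 149) in wild-type cells. The 2 knock-out animals with enough cells, 1 and 5, had 22.3 and 73.4 CPM, and the wild-type animals had 128.5, 119, 218, 55.2 and 78.4 CPM, so single animals overlapped. Gm42031 gave 0 UMIs in knock-out cells, which allows up to 12.3 CPM, and 37 UMIs (38.6 CPM) in wild-type cells. Over the pooled cells this is at least 3.15-fold lower in knock-out cells. Of those 37, wild-type animals 1, 2 and 5 gave 24, 2 and 11. Wild-type animals 3 and 4, with 13 and 12 cells, were at 0 CPM like knock-out animals 1 and 5, so single animals overlapped here too. The other 4 members were at or near 0 in neutrophil-like cells: AC102496.1 gave 0 UMIs in knock-out and 6 in wild-type cells, Gm43305 2 and 1, Nudt16 0 and 2, and G530011O06Rik 0 and 0.

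B-like cells numbered only 12 in knock-out animals, against 88 in wild-type animals, of which 66 came from wild-type animal 3. Rpl29 was at 735 CPM (496 to 1049) in knock-out and 1567 CPM (1431 to 1713) in wild-type cells, a pooled ratio of 0.469 with an interval of 0.313 to 0.678. Gm42031 could not be told apart between genotypes in B-like cells: 4 UMIs (98.0 CPM) in knock-out and 29 UMIs (94.1 CPM) in wild-type cells, a ratio of 1.04 with an interval of 0.266 to 2.97. Knock-out animal 4, with 2 B-like cells, gave 3 of the 4 UMIs, and without it the knock-out level was 32.4 CPM and the ratio 0.344 (0.00842 to 2.08). AC102496.1 gave 1 UMI in knock-out and 39 in wild-type cells, and Gm43305 1 and 36, both with intervals of the ratio that include equality. Nudt16 gave 0 and 2 UMIs, and G530011O06Rik none in either genotype, so neither could be compared at this depth. These intervals cover counting error and leave out the spread between animals, which 12 cells cannot show.

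Natural killer (NK)-like cells, 13 in knock-out and 22 in wild-type animals, had Rpl29 at 491 CPM (315 to 731) in knock-out and 1178 CPM (955 to 1437) in wild-type cells. Knock-out animal 5 gave 11 of the 13 cells and wild-type animal 1 gave 11 of the 22. Migratory dendritic cell-like cells, 32 and 56, had Gm42031 at 12.5 CPM (2.58 to 36.6) in knock-out and 179 CPM (140 to 224) in wild-type cells. Plasma-like cells, with 1 knock-out and 19 wild-type cells, could not be compared. In these wild-type plasma-like cells AC102496.1 was at 559 CPM (470 to 660) and had a UMI in all 19 cells. Wild-type animal 3 gave 18 of the 19 cells and 136 of the 138 UMIs, so the interval leaves out the spread between animals.

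**Figure D3:**
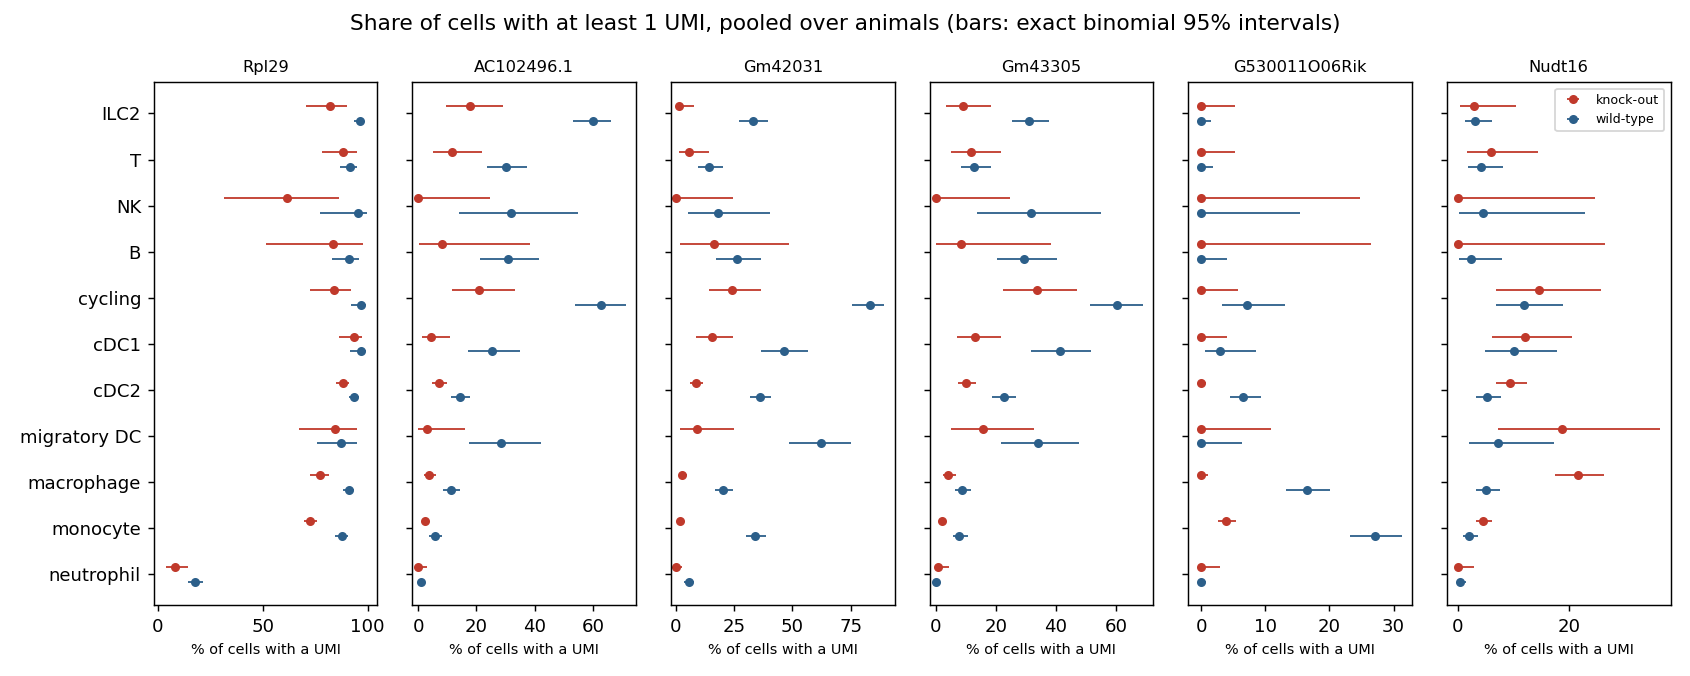
Percent of cells with at least 1 UMI of each transcript in 11 lineages, pooled over the animals of knock-out (red, upper of each pair) and wild-type mice (blue, lower), with exact binomial 95% intervals that cover counting error only. Rpl29 is found in most cells outside neutrophil-like cells in both genotypes, and Gm42031 is found in 24.2% of knock-out and 83.3% of wild-type cycling-like cells.

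Counted cell by cell, no member marked the genotype of every cell. Rpl29 had a UMI in 75.5% of knock-out and 81.4% of wild-type cells, so most cells of both genotypes carried it. After each cell was thinned to 1000 UMIs, which every cell had, these shares were 37.3% ± 4.64 in knock-out and 52.5% ± 8.26 in wild-type animals (SD, n = 5 each). Gm42031 had a UMI in 5.96% ± 3.14 of knock-out and 31.2% ± 10.2 of wild-type cells, and in 1.46% ± 1.01 and 9.36% ± 3.89 after thinning. At least 1 of Gm42031, Gm43305 and AC102496.1 was seen in 10.7%, 23.3%, 22.1%, 16.3% and 8.98% of the cells of knock-out animals 1 to 5, against 27.9%, 37.5%, 51.7%, 56.2% and 54.8% of the cells of wild-type animals 1 to 5. The groups did not overlap, but knock-out animal 2 and wild-type animal 1 were close. These shares were not thinned, and the median depths of those animals were 6034 and 3569 UMIs per cell. The same share for other sets of 3 genes was not computed. All 3 together were seen in 4 of 2633 knock-out cells and 134 of 3421 wild-type cells.

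Free RNA can place UMIs in cells that do not make a transcript. The antibody light chain gene Igkc had a UMI in 7.98% of knock-out and 7.32% of wild-type myeloid cells, at median depths of 6043 and 6372 UMIs, and its level there was 0.0140% and 0.0117% of that in B-like and plasma-like cells. The neutrophil gene S100a8 in lymphoid cells was at 0.183% of its neutrophil-like level in knock-out (31 UMIs) and 0.00824% in wild-type animals (6 UMIs). S100a9, also a neutrophil gene, went the other way, at 0.0174% in knock-out (4 UMIs) and 0.0257% in wild-type animals (18 UMIs). AC102496.1 in myeloid cells was at 7.18% of its ILC2-like level in knock-out and 5.38% in wild-type animals, with a UMI in 3.96% and 11.2% of the cells. The sources differ far in level, at 91325 CPM for Igkc in knock-out B-like and plasma-like cells and 90.6 CPM for AC102496.1 in knock-out ILC2-like cells, so the shares of cells of the 2 genes are not comparable. The part of free RNA in the AC102496.1 counts of myeloid cells was not tested.

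Whether the genotype difference itself changed with lineage was tested as an interaction, the mean log2 fold of ILC2-like and T-like cells minus that of monocyte-like, macrophage-like and cDC2-like cells, in edgeR with the animal as a block and adjustment over 7727 genes. No member passed. The difference was -0.02 ± 0.14 for Rpl29 (adjusted p = 1), -0.45 ± 0.44 for AC102496.1 (0.874), -0.36 ± 0.87 for Gm42031 (1), -0.42 ± 0.53 for Gm43305 (0.928) and -1.56 ± 0.82 for Nudt16 (0.619). A p that misses the threshold does not show that the folds are alike, and the standard errors of Gm42031 and Nudt16 were wide. The members were chosen by genotype differences in these same cells, so their p-values here are descriptions only. In the fits of single lineages, Nudt16 passed the low-count filter in macrophage-like cells only. G530011O06Rik has no lymphoid counts and could not be tested. Of all genes tested, 7 passed (0.0906%).

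The level among lineages passed for the 4 members that could be tested, as it did for 88.3% of all genes, so this is near the background. The adjusted p was 2.56e-26 for AC102496.1, 6.81e-13 for Gm42031 and 1.87e-17 for Gm43305 in the same F test as for Rpl29, and Nudt16 and G530011O06Rik were too low to pass its filter. Over the 12 lineages with 10 or more cells in at least 1 wild-type animal, the genes whose pattern was most like that of each member were found by Pearson's r of log2(CPM + 5), out of 8860 genes with at least 200 UMIs. Rpl29 was nearest to the ribosomal protein genes Rpl4 (0.995), Rpl11 (0.987) and Rpl6 (0.987). AC102496.1 and Gm43305 were each other's nearest gene (0.890). AC102496.1 was next nearest to Trim24 (0.874) and Gnas (0.871), and Gm43305 to Wdr76 (0.863) and BC003965 (0.854). Gm42031 was nearest to Sfmbt1 (0.778), Dnajc10 (0.757) and Utp14b (0.725), and its r with Gm43305 was 0.702.

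G530011O06Rik was nearest to Gm21860 (0.971), Rgl1 (0.965) and Nxpe5 (0.961), and Nudt16 to Ntan1 (0.956), Med30 (0.936) and Med19 (0.932). All lineages share the same animals, and lineages differ in depth, so these values describe patterns only. B-like, NK-like and plasma-like cells enter from 1 animal each. In wild-type animals Nudt16 ran only from 0 CPM in NK-like to 11.3 CPM in migratory dendritic cell-like cells, so its r rests on low counts. Gm21860 was at 8.82, 0.401, 2.21, 11.4 and 11.2 CPM in knock-out animals, against 41.8, 10.0, 5.08, 8.02 and 11.1 CPM in wild-type animals, and overlapped (log2 fold -1.08 ± 0.79, adjusted p = 0.871 in edgeR). As with G530011O06Rik, wild-type animal 1 was the highest. Mid1, which overlaps G530011O06Rik, had a log2 fold of 0.38 ± 0.41 (adjusted p = 0.912), with 30.4 ± 10.1 CPM in knock-out and 23.7 ± 13.9 CPM in wild-type animals.

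The tested genes nearest to Rpl29 were mostly lower in knock-out animals, but none passed in edgeR. Dusp7, a phosphatase of MAP kinases and the tested gene next to Rpl29, was at 10.6, 11.6, 7.20, 17.3 and 8.94 CPM in knock-out animals, against 21.9, 25.4, 23.3, 22.5 and 18.4 CPM in wild-type animals. Its groups did not overlap (log2 fold -0.94 ± 0.20), and it was called by DESeq2 (adjusted p = 0.00647) but not by edgeR (adjusted p = 0.182). The measured gene next to Rpl29 on the other side, Acy1, gave 90 UMIs and fell below the low-count filter. It was at 2.75 ± 1.75 CPM in knock-out and 2.83 ± 1.15 CPM in wild-type animals (SD), with overlap. Further on that side, Abhd14a had a log2 fold of -0.95 ± 0.28 (adjusted p = 0.410 in edgeR) on 135 UMIs, with overlap. Abhd14b, named after its values were seen, had -1.74 ± 0.52 (adjusted p = 0.417) on 95 UMIs, also with overlap. Abhd14a and Abhd14b overlap each other on the chromosome, so their reads may not be independent. Of the 6 tested genes nearest to Rpl29, 3 on each side, 5 were lower in knock-out animals and 0 passed in edgeR, with 3 at an unadjusted p under 0.05. Over all genes tested 48.8% were lower, 0.0393% passed and 6.85% had such a p.

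Beside Nudt16, Mrpl3, a protein of the mitochondrial ribosome, was higher in knock-out animals: 37.2, 36.1, 37.7, 36.2 and 35.2 CPM, against 22.3, 30.7, 33.8, 29.9 and 27.7 CPM in wild-type animals. Its groups did not overlap (log2 fold 0.41 ± 0.10), and it did not pass (adjusted p = 0.243 in edgeR and 0.140 in DESeq2). Of the 6 tested genes nearest to Nudt16, 4 were higher and 2 lower, and Mrpl3 alone had an unadjusted p under 0.05. Nek11, on the other side of Nudt16, gave 3 UMIs in all.

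Within 10 Mb of Il20rb, leaving Rpl29 and Nudt16 out, 111 genes were tested and 0 were called by edgeR, against 0.0393% of all genes tested, and 1 by DESeq2, against 0.329%. An unadjusted p under 0.05 was reached by 16 of the 111 (14.4%), against 6.85% of all genes tested. The share was 16.2% within 5 Mb, 13.8% within 20 Mb and 11.5% over the whole chromosome. Ranges did not overlap for 3 of the 111 (2.70%), against 1.46% of all genes, and the median log2 fold was 0.0028, against 0.0054 over all genes, with 55 genes lower and 56 higher. Gpx1, a glutathione peroxidase (0.21 ± 0.06, adjusted p = 0.355), and Rasa2, a Ras GTPase-activating protein (-0.56 ± 0.16, adjusted p = 0.386), had the next smallest p after Dusp7 and Mrpl3 in edgeR, and Abhd14a came after them.

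**Figure D4:**
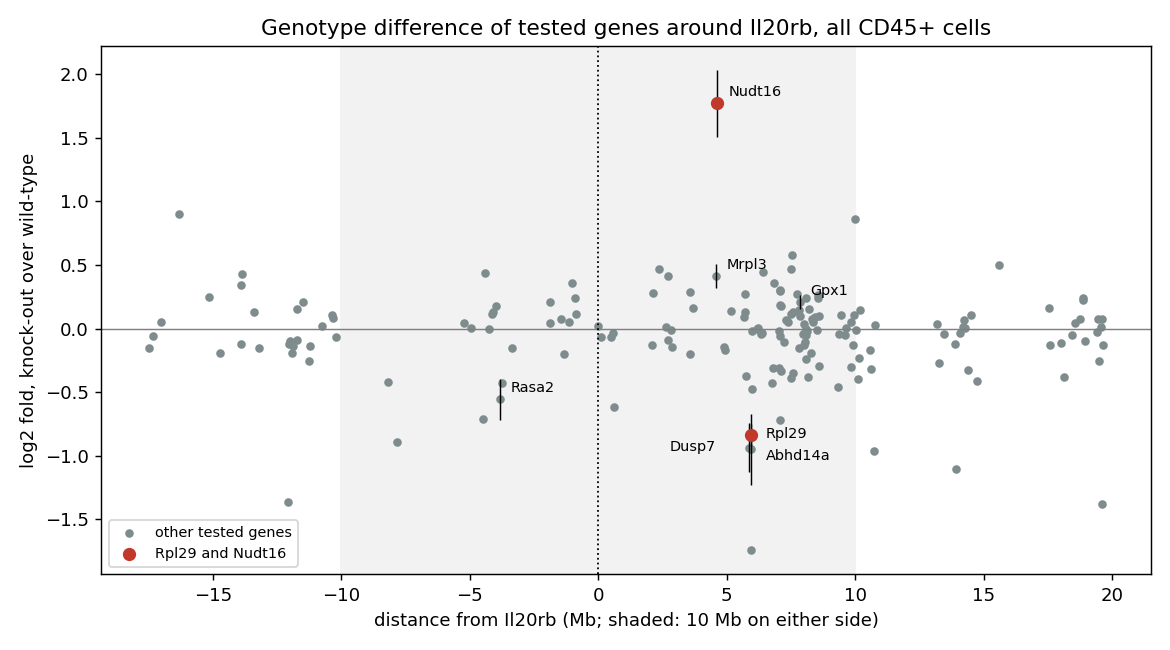
Log2 fold, knock-out over wild-type, of each tested gene within 20 Mb of Il20rb in all CD45+ cells, by its distance from Il20rb in Mb; red points are Rpl29 and Nudt16, grey points other tested genes, bars the SE of named genes, and the shaded band spans 10 Mb on either side. Nudt16 at 1.77 lies above all others, and Rpl29 lies beside Dusp7 and Abhd14a, which have negative folds of like size.

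The other cytosolic ribosomal protein genes had small folds, most of them negative. Of 78 tested, 0 were called by edgeR or by DESeq2, and 1 in edgeR and 3 in DESeq2 had an unadjusted p under 0.05, with 73 (93.6%) lower and 5 higher in knock-out animals, against 48.8% lower over all genes tested. The median log2 fold was -0.06, against 0.01 over all genes. The lowest were Rpl12 (-0.19 ± 0.09), Rpl32 (-0.15 ± 0.07) and Rpl22l1 (-0.14 ± 0.10), and the highest were Rpl7l1 (0.11 ± 0.10), Rps27l (0.08 ± 0.08) and Rpl7a (0.07 ± 0.06), with adjusted p from 0.717 to 0.910 in edgeR. Rpl29 was at -0.83. The table holds 0 genes whose symbol starts with Rpl29-. Processed copies under other symbols were not searched for, and whether reads of such copies were counted as Rpl29 was not tested.

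Other nucleotide hydrolases, most of them nudix enzymes like NUDT16, were mixed. Of 10 tested genes of that list, 0 were called by edgeR or DESeq2, 4 were lower and 6 higher in knock-out animals, and 1 had an unadjusted p under 0.05 in either tool. Over all genes tested 0.0393% were called by edgeR and 0.329% by DESeq2, and 6.85% had such a p in edgeR, so 0 of 10 called is near the background. In edgeR the gene with that p was Nudt4, a diphosphoinositol polyphosphate hydrolase, at 36.4, 39.7, 49.8, 32.8 and 33.5 CPM in knock-out animals, against 54.1, 52.7, 51.6, 50.9 and 50.3 CPM in wild-type animals (log2 fold -0.38 ± 0.12, adjusted p = 0.474 in edgeR). Nudt16l1, the closest relative by name, had a log2 fold of -0.09 ± 0.14 (adjusted p = 0.955).

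A short list of genes known to differ between laboratory mouse strains was looked at next. Wdfy1 was at 24.2, 11.6, 9.41, 24.4 and 26.3 CPM in knock-out animals, against 45.3, 38.5, 29.5, 35.8 and 39.2 CPM in wild-type animals, without overlap, and did not pass in edgeR (log2 fold -0.86 ± 0.31, adjusted p = 0.601). Of the 4 genes of this list that were tested, 0 were called by edgeR or DESeq2, 1 had an unadjusted p under 0.05 in each tool, 2 were lower and 2 higher, against the same shares over all genes as above. Ranges were apart for 1.46% of all genes tested. Nnt, deleted in part in C57BL/6J mice, gave 37 UMIs in all, at 0.828 ± 0.367 CPM in knock-out and 1.31 ± 0.685 CPM in wild-type animals, too few to compare. Cyfip2 (-0.31 ± 0.19), Dock2 (0.11 ± 0.10) and Casp4 (0.23 ± 0.50) overlapped, Nlrp12 gave 49 UMIs, and Entpd4 and Crb1 gave 0.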

How the data were processed

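The authors deposited raw UMI counts, 1 value for each gene in each cell, and per the file headers each cell name carries its well, its genotype and a hashtag. The submitters' processing notes list Cell Ranger 6.0.1, R 4.0.5 and build mm10. For hashtag calling, annotation release and strand the sources used here give nothing. No cell was removed and doublets were not removed; all cells had 1000 or more UMIs. The 2 wells shared 2 barcodes.

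Cells were clustered without the 6 transcripts (scanpy 1.11.5, 2000 variable genes, 30 components, Leiden resolution 2) into 34 clusters, named from markers, with 6 left unnamed. Counts were summed per animal, over all cells and over each lineage with 10 or more cells. These sums were fitted over all genes in edgeR 4.0.16 (filterByExpr, TMM, robust quasi-likelihood) with Benjamini-Hochberg adjustment at 0.05; DESeq2 1.42.0 was an alternative. CPM are raw. The low-count filter passed Rpl29 in 7 lineages, Gm42031 in 5, AC102496.1 in 4, Gm43305 in 3, and Nudt16 and G530011O06Rik in 1 each. Intervals are exact at 95%, a count of 0 allows up to 3 counts, and both cover counting error only. Code was tested on simulated data.

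The members, gene lists and tests were chosen with earlier results of these data known. Named genes are the 6 members, the 3 most like each, the 5 with the smallest p within 10 Mb of Il20rb, the 3 ribosomal protein genes with the largest folds either way, Il20rb and the listed genes. Acy1 and Nek11 are named as measured genes next to Rpl29 and Nudt16. The tested neighbours of Rpl29 and Nudt16 and Gm21860's values were added later.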

Additional observations from a re-analysis of the deposited data

Results flagged for a closer look

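Each member was checked in each group of 4 to 10 animals for an animal far from the rest by Dixon's criterion, in 83 groups. Of these groups, 8 were flagged. The criterion's rate of about 1 in 20 assumes independent groups of normally spread values. These groups share animals and some hold few UMIs or none, so that rate is not set against the 8 found.

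G530011O06Rik in all CD45+ cells stood at 60.4 CPM (276 UMIs) in wild-type animal 1, with the next wild-type animal at 20.9 CPM. Gm42031 accounted for 5 of the 8. It was far above the rest in wild-type animal 5 in cDC2-like cells, at 203 CPM (98 UMIs), and in ILC2-like cells, at 564 CPM (88 UMIs). It was low in wild-type animal 3 in cDC1-like cells, at 58.6 CPM (13 UMIs). In knock-out animals it stood out at 23.8 CPM (1 UMI) in ILC2-like cells of animal 5 and at 10.5 CPM (4 UMIs) in macrophage-like cells of animal 3. The other 2 were zeros in monocyte-like cells: Nudt16 at 0 CPM in knock-out animal 2 and AC102496.1 at 0 CPM in wild-type animal 3. What sets wild-type animal 5 apart for Gm42031 was not tested.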

How the results depend on the processing

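In all CD45+ cells the log2 folds of the 6 transcripts kept their direction under each of 112 alternatives, and 111 moved by less than the spread between animals. The exception was G530011O06Rik without monocyte-like and neutrophil-like cells, at -5.81 on almost no knock-out UMIs, so that value is no bound. Leaving out each animal in turn gave -0.90 to -0.79 for Rpl29, 1.64 to 1.93 for Nudt16, -2.25 to -1.92 for AC102496.1, -3.68 to -3.11 for Gm42031, -1.98 to -1.50 for Gm43305 and -3.54 to -2.34 for G530011O06Rik. Of 245 lineage values, 6 moved by more than the spread and none changed sign. Some of the 245 could not differ from the main value. They left out an animal that had too few cells to be in that fit, or set a minimum of 20 cells that every animal met. The lineage F test kept its calls in all 60 alternatives.

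The lymphoid minus myeloid difference passed for no member in any alternative run. Over the 5 members tested, its sign was reversed in 11 of 70 alternatives. For Rpl29, close to 0, its sign turned to 0.12 with DESeq2 size factors and 0.11 in DESeq2, and it ran from -0.17 to 0.084 when animals were left out. It was 0.043 for AC102496.1 with coarser clusters and -2.68 to 0.17 for Gm42031 when animals were left out. A minimum of 20 cells per animal gave no value for this test. Genes called by it numbered 7, 0 with DESeq2 size factors or DESeq2 and 26 without the filter.

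Near Il20rb, 0 genes were called in edgeR under each alternative, and DESeq2 called 1. Over all genes and cells, edgeR called 4, or 2 in well 1 alone, 2 after thinning, 7 without the filter, 39 without monocyte-like and neutrophil-like cells, and 1 to 5 when animals were left out, with 1 without knock-out animal 4 and 2 without wild-type animal 4. DESeq2 called 62. No paired analysis was possible because the hashtag numbers name animals and pair none of them across genotypes.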
